A study of Mus musculus with 12 samples.

Results

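In the colon of 3 mice with colitis and 3 normal mice, 975 regions of the transcriptome carried a listed peak of N6-methyladenosine (m6A) in every mouse and were at least 2500 bases wide once the peaks were merged. They were found by joining any peaks that overlapped by 1 base or more, whichever list they came from, which gave 26654 merged regions, and by keeping those with a peak in all 6 lists (7569 regions) and with that width. The peak positions chose the members, so their width and their presence in all lists are descriptions and were not tested. The broad regions made up 12.9% of the 7569 shared regions and held 36.5% of the bases in them, and the other 6594 shared regions are the set against which they are described.

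The mice with colitis had received 2,4,6-trinitrobenzenesulfonic acid (TNBS), a hapten that provokes colitis, as a 5% w/v solution placed in the colon through the anus, and the others were fed normally. Both groups were wild-type male C57BL/6J mice, 6 to 8 weeks old and 20 to 22 g, with 3 mice each. The time between TNBS and sampling was not given in the sources used here. Every mouse gave an m6A-immunoprecipitated library and an input library, 12 libraries in all, from which the authors made 1 peak list per mouse. The labels do not say how tissue pieces or RNA were handled within a mouse, so p-values measure the spread between these 6 samples.

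m6A is set on nascent mRNA by a methyltransferase complex built around METTL3 and METTL14, mostly at the sequence context DRACH, of which GGACT is a common form. Reader proteins of the YTH family bind the mark and alter the splicing, translation and decay of the transcript. In mRNA the mark is known to be concentrated in long internal exons, around the stop codon and in the 3′ untranslated region. In the antibody method used here a peak marks a stretch with more fragments in the immunoprecipitate than in the input, so a broad region may hold several methylated bases that are not resolved from each other.

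The labels give colon as the tissue, while the extraction text speaks of retinas. Of 14 colon epithelium markers 11 had a peak in at least 1 list, and of 15 retina markers 1 did. The TNBS lists held 18752, 10971 and 19285 peaks and the normal lists 16488, 16324 and 13992, and read depth was not given in the sources used here. All mice are labelled male, yet the lists of TNBS mice 1, 2 and 3 had 3, 24 and 3 peaks on chromosome Y, against 18, 17 and 17 in the normal lists. The list of TNBS mouse 2 was the shortest, and the comparisons of the groups and the shares over all lists are given with and without it, and without TNBS mice 1 and 3. The presence and length of a peak depend on read depth and on transcript level as well as on m6A. In bulk colon, fewer cells of a type and less RNA per cell cannot be told apart.

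GGACT occurrences in 8 broad regions are printed here as examples of the local sequence. They were taken, on the transcript strand, from RefSeq windows that lie before and just past an annotated start (GRCm38.p6), the only sequence used here for these genes. Such a start need not be the gene's 5′ end: the Ank2 region began 552540 bases past it. In each of the 8 regions the printed stretch lay inside a listed peak of all 6 mice. Capitals mark GGACT, and each line runs 5′ to 3′.

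Ank2, chr3:126943599-126943627, minus strand: gagcatgccagaGGACTgtcccattcaag
Fat4, chr3:38887120-38887148, plus strand: agcagcccccagGGACTctggtgggcacc
Pcdh17, chr14:84443581-84443609, plus strand: gggagagaatccGGACTgcgagcccggcg
Irs2, chr8:11007808-11007836, minus strand: ctgaaacctaagGGACTgggccagagcaa
S1pr3, chr13:51418738-51418766, plus strand: gcgccctctcgtGGACTgttgaagtaacc
Pcif1, chr2:164891155-164891183, plus strand: cacagactgctaGGACTcagcctcagggc
Tsc22d1, chr14:76415833-76415861, plus strand: gtgaatggcgaaGGACTgaaggggtcccc
Jun, chr4:95052078-95052106, minus strand: gccgcggactccGGACTgttcatccgttt

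These regions belonged to genes of varied roles: Ank2 encodes an ankyrin that ties membrane proteins to spectrin, Fat4 and Pcdh17 encode cadherins, Irs2 an adaptor of the insulin receptor, S1pr3 a receptor for sphingosine 1-phosphate, Jun a subunit of the AP-1 transcription factor, and Pcif1 the enzyme that methylates adenosine next to the mRNA cap. The start windows overlapped 104 of the 975 broad regions, and 16 of these held GGACT in the overlap. Over the 13372 overlapping bases GGACT occurred 23 times on the transcript strand, or 1.72 times per kb, against 1.02 per kb in 126721 such bases of other shared regions and 1.03 per kb over all 32851 start windows. The shorter GGAC occurred 5.53 times per kb in broad regions, 4.87 in other shared regions and 3.82 over all windows. These sets differed in base composition, with G or C at 61.2%, 66.8% and 53.8% of bases in that order, and no test was made. A match is a description of the letters and not a mapped m6A site.

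The merged width had a median of 3206 bases and a maximum of 11238. There were 389 regions under 3000 bases, 377 from 3000 to under 4000, 129 from 4000 to under 5000 and 80 of 5000 or more. Just inside the threshold lay the regions of Ece1 (2500 bases), Etv3 and Zfp870 (2501 bases each), and just outside it those of Heatr6 (2498), Mab21l2 (2492) and Adrb1 (2491). The regions were annotated to 949 genes, which is 17.9% of the 5299 genes with any shared region. Of the regions, 16 carried 2 gene names. In 23 genes there were at least 2 broad regions, and Fat4 and the transcription factor genes Zfhx3 and Zfhx4 each had 3. There were 15 regions on chromosome X and 0 on chromosome Y.

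The widest region lay in Eppk1, which encodes epiplakin, a plakin that binds keratin filaments in epithelial cells (chr15:76101488-76112725, GRCm38, 11238 bases). A single peak covered 96.2%, 100% and 100% of it in TNBS mice 1 to 3 and 100%, 100% and 95.2% in normal mice 1 to 3, and the group ranges overlapped. Stard9, a kinesin family member, followed with 9837 bases (chr2:120695744-120705580), of which a single peak covered 100%, 93.3% and 100% in TNBS lists and 94.8%, 95.02% and 100% in normal lists. Spen, a transcriptional corepressor, and Plec, which encodes the cytoskeletal linker plectin, had regions of 8020 and 7412 bases that all 6 lists gave with the same start and end. The Plec peak also had high fold enrichment over input, at 136, 55.5 and 187 in the TNBS lists and 88.6, 73.7 and 75.3 in the normal lists. Fold enrichment and score are the authors' own values per peak and are compared here only within a list.

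Other wide regions owed their width to 1 or a few lists. In Ddi2, an aspartic protease gene (chr4:141677549-141685631, 8083 bases), the covered share was 40.6%, 38.2% and 47.8% in TNBS lists and 39.8%, 48.5% and 100% in normal lists, so normal mouse 3 alone reached the full width. In Sh3pxd2a, a podosome scaffold gene (8763 bases), TNBS mouse 3 alone did so, with 55.5%, 55.0% and 100% in TNBS lists and 55.2%, 59.0% and 66.4% in normal lists. In Trim56, a ubiquitin ligase gene of antiviral defence, the region of 9006 bases ran past the end of the annotated gene, and 24.1% of it was covered in all 6 lists. In the cancer-associated gene Apc, whose product holds beta-catenin in check, the region of 7341 bases was covered over 94.7% to 98.9% in TNBS lists and 95.8% to 100% in normal lists.

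Over all members, a median of 70.3% of the merged width was covered in every list, against 100% in other shared regions. In 291 members at least 90% of the width was common to all lists, and in 272 less than 50% was. Over the 5 lists other than that of TNBS mouse 2, the median for the same members was 87.9%, with 454 at 90% or more and 144 under 50%. Over the 4 lists other than those of TNBS mice 1 and 3 it was 71.0%. The region counted as broad is thus the union of the 6 lists, and the length in a single mouse was often shorter.

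**Figure D1:**
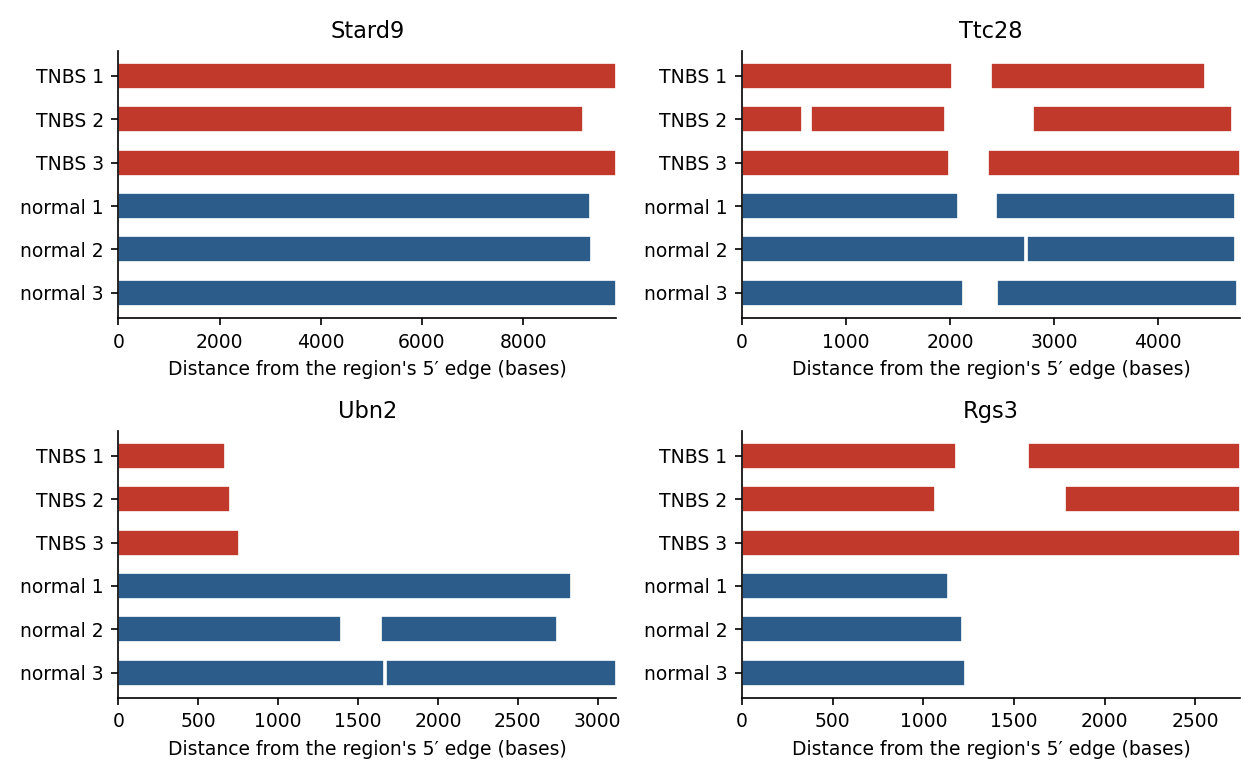
Listed peaks in 4 broad regions, drawn by mouse (rows, TNBS above normal) against the distance in bases from the region's 5′ edge. Stard9 was covered by 1 peak in each list, Ttc28 by 2 or 3, Ubn2 over 21.4% to 24.3% in TNBS lists and 80.1% to 99.6% in normal lists, and Rgs3 over 74.0% to 100% in TNBS lists and 41.3% to 44.8% in normal lists.

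Most broad regions, 826 of 975, had exactly 1 peak in each list, though the peaks of different lists could cover different parts of the union. The strongest peak in a region had a median width of 2373 bases in TNBS mouse 2 and 2831 to 2930 in the other lists. Among the regions with many peaks, Ttc28 had 13 over the 6 lists, with 2, 3 and 2 in TNBS lists and 2 in each normal list, and the phosphatase family gene Mtmr10 had 12. The lists of TNBS mice had 2 or more peaks in 52, 57 and 54 regions and the normal lists in 48, 46 and 44, so the groups did not overlap. The mean number of peaks per region was 1.057 ± 0.00388 in TNBS lists and 1.048 ± 0.00205 in normal lists (SD, n = 3 each; exact two-sided permutation test, p = 0.1, the smallest that 3 against 3 can give). The difference was 0.00889 peaks per region. With equal numbers of peaks from each list p was 1, and with scores of at least 100 it was 0.2 (exact permutation tests), so the groups then overlapped. With the regions found anew without TNBS mouse 2 the difference was 0.0047, and without TNBS mice 1 and 3 it was 0.0168.

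The position within the gene could be set for the 747 members whose strand was known from the RefSeq tables, and for 5135 other shared regions. Of the members, 276 (36.9%) ended within 50 bases of the gene's 3′ end, 38 (5.09%) began within 50 bases of its 5′ end, and 29 (3.88%) reached both. Inside the gene lay 357 (47.8%), and 47 (6.29%) ran past an end. In other shared regions these shares were 19.6% at the 3′ end, 13.1% at the 5′ end, 0.896% at both, 63.0% inside and 3.43% past an end. The median member took up 9.89% of its gene's span on the genome, introns included, and the median other shared region 1.69%, while the median gene span was alike at 36.9 and 37.2 kb. Jun, which has no introns, and Fem1a, a substrate receptor of a ubiquitin ligase, were examples with a region over both ends.

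The 3′ edge varied between lists more often than the 5′ edge. Among the placed members the 5′ edge was the same base in all 6 lists in 622 regions (83.3%) and the 3′ edge in 146 (19.5%). In other shared regions the 5′ edge was the same in 84.7% and the 3′ edge in 67.9%. Both edges were the same in 170 of all 975 members (17.4%), against 57.4% of other shared regions. Without the list of TNBS mouse 2, the 5′ edge was the same in 90.2% of placed members and the 3′ edge in 27.3%, against 89.5% and 71.9% of other shared regions. Without TNBS mice 1 and 3 the shares in members were 83.4% and 20.9%. The set was chosen by width, which joins differing edges into a longer union, so these shares describe the set and were not tested.

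In every list, coverage was lower near the 3′ edge of the merged region than near its 5′ edge. In the 25% of the width nearest to the 5′ edge of the placed members, peaks covered 97.8%, 92.1% and 97.6% of the bases in TNBS lists and 96.4%, 97.1% and 97.2% in normal lists. In the 25% nearest to the 3′ edge they covered 77.7%, 41.4% and 79.6% in TNBS lists and 69.2%, 75.7% and 71.5% in normal lists. The gap between these end parts was thus 20.1, 50.7 and 17.97 points in TNBS lists and 27.2, 21.4 and 25.7 points in normal lists, and TNBS mouse 2 stood apart. In other shared regions the gap was 6.96, 12.9 and 6.72 points in TNBS lists and 7.79, 7.43 and 7.37 points in normal lists.

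**Figure D2:**
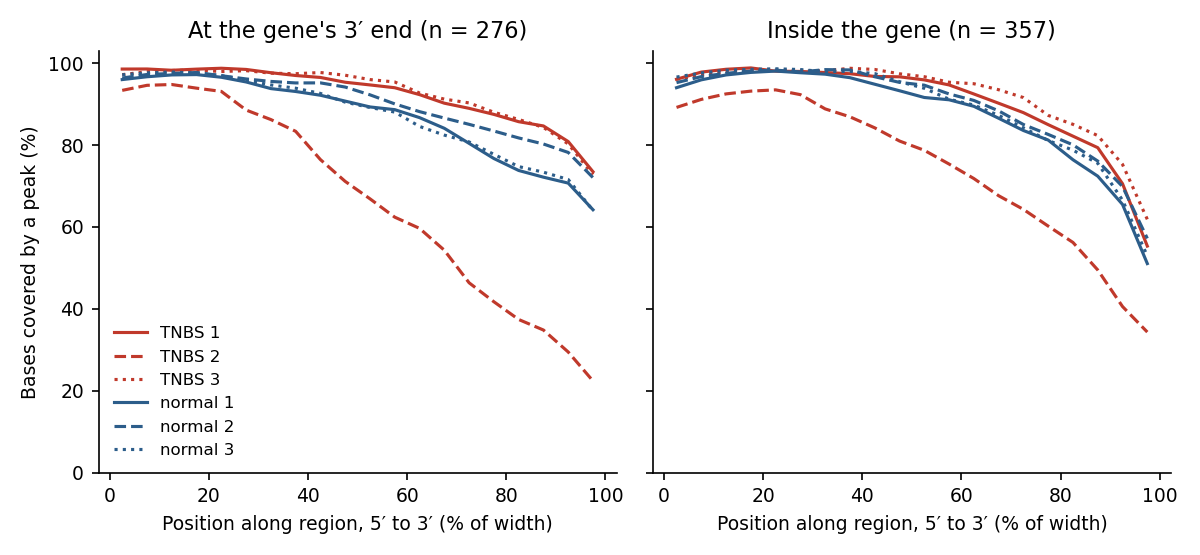
Share of bases covered by a listed peak (vertical axis, %) in 20 equal bins from the 5′ to the 3′ edge of the merged region, for 276 regions at a gene's 3′ end and 357 inside a gene, with a line for each list. In regions at the 3′ end the last bin was covered over 73.5%, 22.4% and 72.8% in TNBS lists 1 to 3 and over 64.2%, 72.0% and 64.0% in normal lists.

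TNBS colitis was then compared with normal colon by the share of each merged region that a mouse's peaks covered. The mean over the 975 regions was 90.8%, 71.0% and 92.0% in TNBS mice 1 to 3 and 87.1%, 89.4% and 88.0% in normal mice 1 to 3. TNBS mice 1 and 3 lay above all normal mice and TNBS mouse 2 far below them. The group means were 84.6% ± 11.8 in TNBS lists and 88.2% ± 1.15 in normal lists (SD, n = 3 each), a difference of -3.56 points that was smaller than the spread between TNBS mice (exact two-sided permutation test, p = 1). Without TNBS mouse 2, and with the regions found anew in the other 5 lists, the difference was 2.79 points in the opposite direction. The same exact test gave p = 0.2, the smallest that these 5 lists can give. Without TNBS mice 1 and 3 the difference was -18.2 points, with 1 TNBS list left.

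The list of TNBS mouse 2 gave the shortest covered length, alone, in 584 of the 975 regions. It covered 182 regions in full, against 454 and 475 in TNBS mice 1 and 3 and 404, 451 and 422 in the normal mice. It left 239 regions less than 50% covered, against 35 and 32 in TNBS mice 1 and 3 and 74, 58 and 62 in normal mice. Mouse, library and read depth cannot be told apart here.

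**Figure D3:**
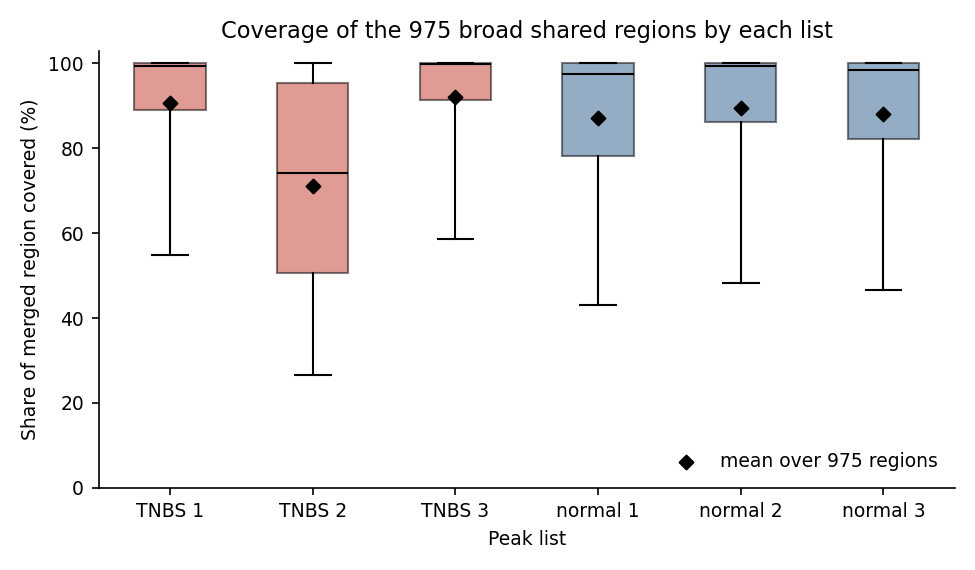
Share of the merged region covered by each list's peaks (vertical axis, %) over the 975 broad regions, with TNBS lists on the left. Boxes span the middle 50% of regions with the median as a line, whiskers reach the 5th and 95th percentiles and diamonds are means, which ran from 71.0% in TNBS mouse 2 to 92.0% in TNBS mouse 3.

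Single regions were read by whether the covered lengths of the groups overlapped. In 14 members (1.44%) every TNBS list covered more than every normal list, against 0.766% of all 7569 shared regions. In 73 members (7.49%) every TNBS list covered less than every normal list, against 3.03% of all shared regions. The covered length differed between lists in 821 members (84.2%) and in 2832 other shared regions (42.9%). Among regions that differed in length at all, TNBS lists covered more in 1.71% of members and 1.55% of others, and covered less in 8.89% of members and 5.51% of others. These counts also rest on TNBS mouse 2. Without its list, 121 of the 1169 regions that then met the rule (10.4%, background 4.01%) were covered more in TNBS lists and 100 (8.55%, background 3.7%) were covered less. These backgrounds are over all 10095 regions shared by those lists. Regions of equal length, which cannot separate the groups, were not left out of them.

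Across all 7569 shared regions, limma on log2(covered bases + 1) with Benjamini-Hochberg adjustment called 0.0396% of regions longer and 0.0661% shorter in TNBS lists at an adjusted p under 0.05. Of the broad regions, 29 (2.97%) had an unadjusted limma p under 0.05, against 1.49% of all shared regions. Regions of equal length in all lists cannot reach it, and these shares include them. Length differed in 84.2% of members but in 48.3% of all shared regions. With adjustment, limma called 2 broad regions, both shorter in TNBS lists. The first was in Ubn2, which encodes ubinuclein 2, a partner of the HIRA histone chaperone (chr6:38502238-38505352, inside the gene). Peaks covered 21.4%, 22.5% and 24.3% of it in TNBS lists, all at its 5′ side, and 90.9%, 80.1% and 99.6% in normal lists. The groups did not overlap, and the log2 difference in covered length was -1.98 (SE 0.10, limma adjusted p = 0.0437). A second broad region of Ubn2, 2680 bases wide, was covered over 64.4%, 64.8% and 71.5% in TNBS lists and 61.4%, 64.8% and 100% in normal lists, with overlapping groups.

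The other called region lay at the 3′ end of Phlpp2, which encodes a phosphatase that removes an activating phosphate from AKT (chr8:109939754-109944671). It was covered over 37.7%, 36.3% and 43.1% in TNBS lists and 100%, 98.7% and 100% in normal lists. The log2 difference was -1.35 (SE 0.075, limma adjusted p = 0.0473). Both calls were close to the threshold. With 1 list left out, the adjusted p by limma was 0.0875 to 0.272 for Ubn2 and 0.00447 to 0.315 for Phlpp2, and Phlpp2 remained under 0.05 only without TNBS mouse 3. Without TNBS mouse 2 the log2 difference in Ubn2 was -1.98 (limma adjusted p = 0.145).

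Among the other regions covered less in TNBS lists, several had TNBS values close to each other. In Pigc, an enzyme of the glycosylphosphatidylinositol anchor pathway, the covered share was 47.8%, 48.8% and 46.8% in TNBS lists and 83.9%, 84.6% and 100% in normal lists (limma adjusted p = 0.149). In Bcl11b, a transcription factor of T cells and other tissues, it was 61.6%, 54.0% and 54.9% in TNBS lists and 100%, 99.1% and 96.0% in normal lists (adjusted p = 0.106). In Msl2, a ubiquitin ligase of the complex that acetylates histone H4, it was 48.5%, 46.2% and 53.9% in TNBS lists and 95.03%, 100% and 76.3% in normal lists. In these genes the groups did not overlap and TNBS mouse 2 lay near the other TNBS mice.

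In the rest of the 10 largest decreases the TNBS mice varied more. Fpgt, an enzyme of fucose salvage, averaged 55.6% ± 6.0 in TNBS lists and 98.7% ± 2.3 in normal lists (SD, n = 3 each). Banp, a nuclear matrix protein gene, had 33.6%, 22.4% and 83.2% in TNBS lists and 100%, 93.0% and 92.3% in normal lists. Ppp1r9a, which encodes the actin-binding protein neurabin, had 27.7%, 24.4% and 57.6% in TNBS lists and 61.3%, 100% and 79.3% in normal lists. Ern1, which encodes the stress sensor IRE1 of the endoplasmic reticulum, had 91.8%, 49.7% and 49.2% in TNBS lists and 99.6%, 100% and 96.4% in normal lists. Grap2, an adaptor of T cell receptor signalling, had 55.9%, 12.4% and 60.0% in TNBS lists and 76.4%, 75.3% and 87.8% in normal lists. None of these 5 passed the limma threshold.

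The regions covered more in TNBS lists were led by Rgs3, a regulator of G protein signalling (chr4:62657103-62659847). Its covered share was 85.6%, 74.0% and 100% in TNBS lists and 41.3%, 44.2% and 44.8% in normal lists (limma adjusted p = 0.411). A stretch at its 3′ side had a listed peak in the TNBS mice and none in the normal mice. In TNBS mice 1 and 2 this was a separate weak peak, with scores of 83.7 and 66.0. Both scores were near the lowest listed score of 50 and under the stricter limit of 100. In TNBS mouse 3 the stretch was part of 1 peak over the whole region. In Fam222b every TNBS list covered 100%, and normal lists covered 64.9%, 56.4% and 59.6% (adjusted p = 0.107). Gpr146, a receptor gene, had 100%, 99.6% and 99.8% in TNBS lists and 43.1%, 83.0% and 61.0% in normal lists.

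Kcna5, a voltage-gated potassium channel gene, had 95.1%, 94.8% and 100% in TNBS lists and 29.3%, 92.5% and 63.8% in normal lists, and the gap to normal mouse 2 was narrow. Crtc3, a coactivator of CREB, averaged 99.6% ± 0.6 in TNBS lists and 71.1% ± 9.6 in normal lists (SD, n = 3 each). Cbx7, a Polycomb subunit, had 2 peaks in each TNBS list and 1 in each normal list, with 91.0%, 70.3% and 95.6% covered in TNBS lists and 61.8%, 61.3% and 62.1% in normal lists. Ptprb, an endothelial phosphatase gene, and Amigo1, Gcnt4 and Ano6 differed by 11.7 to 22.5 points. No region covered more in TNBS lists passed the limma threshold.

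**Figure D4:**
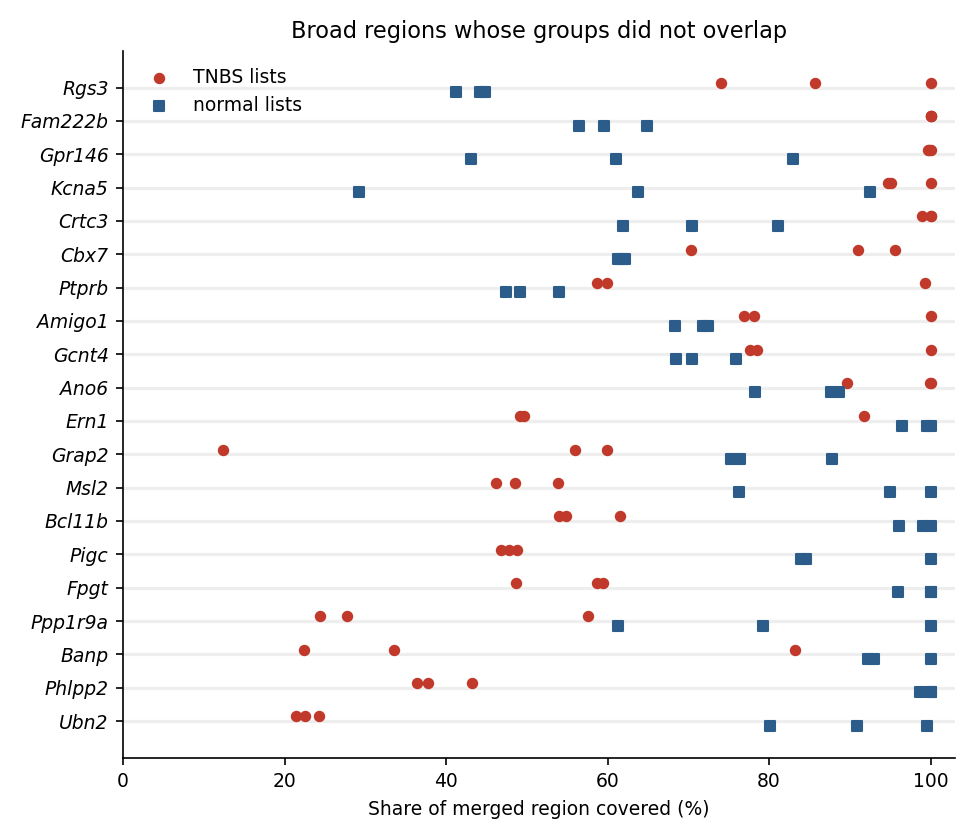
Covered share (horizontal axis, %) of the merged region in each mouse for the 20 named regions whose groups did not overlap, 10 with higher and 10 with lower coverage in TNBS lists (circles) than in normal lists (squares). Ubn2 had the largest fall, at 22.7% ± 1.4 in TNBS lists and 90.2% ± 9.7 in normal lists (SD, n = 3 each).

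Fold enrichment, which the choice of members did not use, was higher in broad regions than in other shared regions of the same list. The median was 20.2, 10.7 and 25 for broad regions in TNBS lists 1 to 3 and 22.0, 17.1 and 14.4 in normal lists 1 to 3. For other shared regions it was 17.3, 9.88 and 21.6 in TNBS lists and 17.3, 14.6 and 12.5 in normal lists. The difference was 2.73 ± 1.31 (SD over 6 lists), above 0 in 6 of 6 (exact two-sided sign-flip permutation test, p = 0.03125, the smallest that 6 lists can give). In the 326 or 327 genes with both kinds of region, the within-gene difference had a median of 1.73, 0.965 and 0.91 in TNBS lists and 4.90, 2.28 and 1.60 in normal lists (exact sign-flip permutation p = 0.03125). The broad region was the higher in 57.2%, 55.0% and 52.3% of these genes in TNBS lists and in 67.5%, 62.0% and 57.4% in normal lists.

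With the same number of peaks taken from each list, the difference in median fold was 1.34 (exact sign-flip permutation p = 0.0625). Without TNBS mice 1 and 3 it was 2.73 (exact p = 0.125, the smallest that 4 lists can give). The ratio of the medians, broad over other, was 1.14 ± 0.0439 in TNBS lists and 1.201 ± 0.0625 in normal lists (SD, n = 3 each; exact permutation test, p = 0.3). Many scores were tied at 3100, and some lay above it. Of the peaks in broad regions, 62.0%, 23.0% and 55.2% had a score of 3100 or more in TNBS lists and 64.3%, 60.2% and 42.6% in normal lists. In other shared regions the shares were 32.2%, 9.67% and 25.9% in TNBS lists and 29.7%, 28.9% and 18.6% in normal lists. The caller's false discovery rate, also the authors' value, was high in broad regions. The lowest value of any peak in them was 52.4%, 100% and 92.3% in TNBS lists and 18.7%, 12.9% and 31.2% in normal lists. It was 100% for 16.2%, 100% and 99.9% of their peaks in TNBS lists and for 1.17%, 1.27% and 8.24% in normal lists. The rate was not compared with that in other shared regions, so it is not shown to be particular to broad ones. The part of peak length in the score and in the fold enrichment was not tested.

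**Figure D5:**
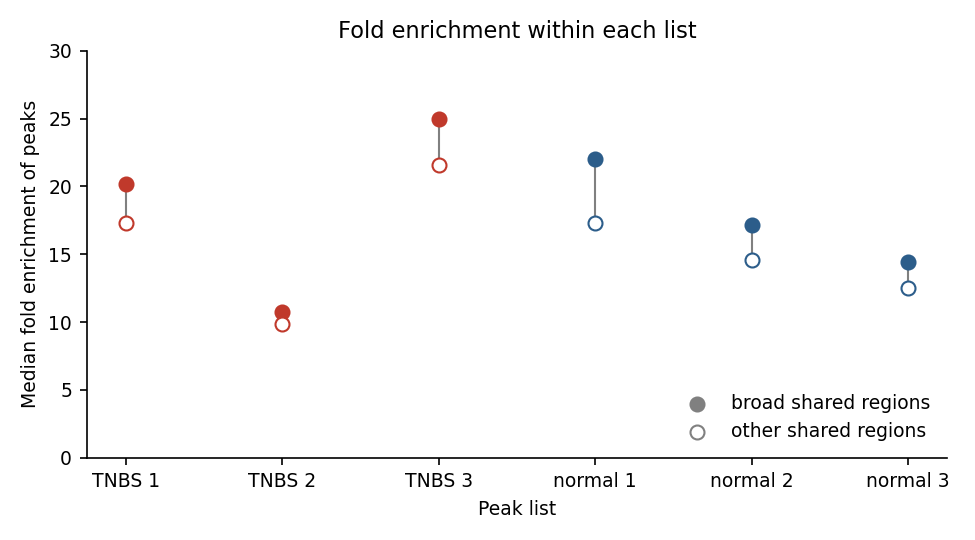
Median fold enrichment over input (vertical axis) of peaks in broad regions (filled) and in other shared regions (open) of each list, TNBS lists on the left. The filled point lay above the open point in 6 of 6 lists, by 2.73 on average.

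By the mean percentile of the strongest peak's score over the 6 lists, the nucleotide receptor gene P2ry2 came first at 94.6, followed by Cdcp1, which encodes a membrane protein phosphorylated by SRC kinases, at 93.9 and the zinc finger gene Zxdb at 93.8. In P2ry2 the fold enrichment was 46.0, 32.8 and 53.2 in TNBS lists and 23.1, 29.4 and 24.5 in normal lists. Topors, a ubiquitin and SUMO ligase gene, and Kmt2a, a histone H3 methyltransferase gene, each had a mean of 93.0. The cap on the score leaves many regions with nearly the same percentile, and their order carries little.

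Gene groups are given as the number of genes with a broad region among those with any shared region, to be read against 17.9% over all 5299 genes. Chromatin coactivators and histone modifiers had a broad region in 18 of 33 genes (54.5%). Their widest were in Tet3, an enzyme that oxidises 5-methylcytosine, and in the histone methyltransferase gene Nsd1, with 7306 and 6207 bases. Tet3 was covered over 83.8%, 49.7% and 100% in TNBS lists and 84.0%, 83.5% and 85.5% in normal lists. The long Nsd1 region was covered over 100%, 39.7% and 100% in TNBS lists and 40.1%, 66.1% and 51.1% in normal lists. Asxl1, a partner of the BAP1 deubiquitinase, was the gene of this list covered less in every TNBS list, at 80.1%, 73.9% and 79.1%, against 100%, 100% and 89.998% in normal lists.

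Transcriptional corepressors, listed together with other regulators of transcription, had a broad region in 11 of 17 genes (64.7%). The median width was 5487 bases, that of Hivep3. The other regulators include Hivep1, Hivep2, Hivep3, Tcf20 and Rai1, so the share is not that of corepressors alone. Nrip1, a corepressor of nuclear receptors, was covered over 97.5%, 60.7% and 75.4% in TNBS lists and 100%, 99.4% and 98.9% in normal lists, without overlap. In Hivep1, Hivep2 and Tcf20, which encode zinc finger regulators of transcription, all 6 lists gave the full 5506 to 5939 bases. Rai1 had 100%, 87.8% and 100% in TNBS lists and 87.8%, 100% and 93.1% in normal lists. Cytoskeletal linkers had one in 12 of 27 genes (44.4%), with a median width of 5368 bases, among them Eppk1, Plec, the microtubule protein genes Map1a and Map1b, and Synm, an intermediate filament gene of muscle. Synm was covered over 99.6%, 55.2% and 99.5% in TNBS lists and 100% in each normal list.

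Of the genes in the Notch, Wnt and Hippo pathways, 8 of 21 (38.1%) had a broad region. Fat1 and Fat4, giant cadherins that act upstream of Hippo signalling, had 2 and 3. Znrf3, a ubiquitin ligase that lowers Wnt receptors, was covered over 83.4%, 62.6% and 84.2% in TNBS lists and 87.6%, 99.3% and 90.8% in normal lists, without overlap. The insulin receptor substrates Irs1 and Irs2 were among 4 of 12 genes (33.3%) of the receptor tyrosine kinase adaptors, and Irs2 was covered in full in every list. All 3 Tnrc6 genes, which encode the GW182 scaffolds of microRNA silencing, had a broad region of 2583 to 2622 bases, and they were the only ones among the 11 silencing and decay genes with a shared region (27.3%).

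Of the m6A machinery, 2 of 15 genes (13.3%) had a broad region, and both encode the RNA-binding adaptors RBM15 and RBM15B that guide the methyltransferase complex. Rbm15 was covered over 91.6%, 90.1% and 91.5% in TNBS lists and 98.6%, 98.6% and 100% in normal lists, so the groups did not overlap. Rbm15b was covered in full in every list but that of TNBS mouse 2, at 92.3%. Epithelial junction genes had one in 4 of 16 (Shroom2, Shroom3, Magi1 and Magi3), ubiquitin enzymes in 1 of 13 (Rnf213) and matrix genes in 1 of 5 (Lamc1).

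Markers of cell types were counted in the same way. Colon epithelium had 0 of 4, the mucus barrier 0 of 1, endothelium 0 of 6, enteric neurons and glia 0 of 2, and inflammatory mediators with NF-kB regulators 0 of 6. Smooth muscle had Synpo2 (1 of 9) and lymphocytes Bcl11b (1 of 2), while no neutrophil or retina marker had a shared region.

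Zinc finger genes named Zfp plus digits supplied 63 of the genes, out of 166 with a shared region (38.0%), and 6 of their 63 regions were covered less in every TNBS list, beside 73 of all 975 members. Protocadherins supplied 16 of 22 (72.7%), of which Pcdh17 and Pcdh7 were the widest with 5091 and 4258 bases. Pcdh17 was covered over 89.5%, 97.6% and 100% in TNBS lists and 100% in each normal list. Members of both families are near-identical to each other in places, so the assignment of fragments to one gene is uncertain. The lists were written by hand with earlier results known, so these shares are descriptions of the lists.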

How the data were processed

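The deposited data were 6 peak lists, 1 per mouse, called from immunoprecipitated against input RNA and limited to mRNA. Per the submitters' processing notes, CASAVA 1.8 and BWA were used and hg19 was named as build. The positions are mouse: peak edges matched RefSeq GRCm38 gene bounds exactly for 7330 starts and 6956 ends, so positions are given in GRCm38, counted from 1. Peak names are those of MACS, per the file headers, and no source used here gives its version or settings. The score (minus 10 times log10 of the caller's p, lowest 50), the fold enrichment ratio, the false discovery rate in percent and the other column, peak length in bases, are the authors' deposited values.

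From these, peaks were merged on 1 shared base, and the covered bases of each shared region were counted per list. Lists were compared by exact permutation, two-sided, of 3 against 3, or by sign flips of 6. limma 3.58.1 in R 4.3.3 (lmFit, robust eBayes) was fitted to log2(covered bases + 1) over 7569 regions. Its prior had 0.0619 degrees of freedom, so each region's own spread of 6 values decided its test. Python 3.11.15 with scipy 1.17.1 did the rest. The limma step was also run on simulated data, with deviations from the group means shuffled between lists in each region. Such data do not hold the short coverage of the whole list of TNBS mouse 2, so that run cannot show how limma handles it. Positions in genes and strands came from RefSeq tables (GRCm38.p6), in which 957 members were matched by gene identifier, and 228 members without a strand were not placed. Sequence came only from the RefSeq start windows.

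The members and the 22 gene lists were chosen with earlier results of these data known. Named were the 15 widest regions, the 10 of highest mean score percentile, the 10 with the largest difference in covered share in each direction among regions whose groups do not overlap, the 5 with the most peaks, up to 4 of each gene list and 3 on each side of the width threshold, without clone or model names. The text gives values for a part of these, and some genes that the rule takes are left out of this text. The printed GGACT sites are, among regions with a site inside a peak of all 6 lists, those of the 8 widest, leaving out chromosome 18 and the same name classes. Equal replicate numbers did not pair the mice (correlations of deviations -0.04, -0.09 and 0.06). Alternatives were a score of at least 100, a fold of 4 or more, equal numbers of peaks per list, a 50% overlap, widths of 2000 and 3000 bases, each list left out, a replicate block, the median, an untransformed share and, added after seeing the data, the lists of TNBS mice 1 and 3 left out, only genes with both kinds of region, and the members' edges and common width without those lists or without TNBS mouse 2.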

Additional observations from a re-analysis of the deposited data

How the results depend on the processing

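Of 97 values computed under alternatives, 62 stayed the same, 26 moved, 8 were weaker and 1 was reversed. For tested results, staying the same meant keeping the direction and the side of the p threshold. Counts have no direction or p, and for them it meant a count of similar size to the main count. The TNBS minus normal difference in covered share ranged from -7.79 to 2.79 points when 1 list was left out, and turned positive only without TNBS mouse 2. The number of broad regions was 1507 at a width of 2000 bases and 586 at 3000. Regions covered more in every TNBS list numbered 26 of 1507 and 8 of 586 at those widths. With 1 list left out they numbered 16 of 953 to 121 of 1169. Regions covered less numbered 46 of 586 at 3000 bases, and 93 of 956 to 158 of 953 with 1 list left out. Without TNBS mice 1 and 3, 24 of 914 regions were covered more and 587 of 914 less. With 1 TNBS list left, these counts only ask whether TNBS mouse 2 lies above or below every normal list. They restate its short coverage and are not comparable with the 14 and 73 of the main comparison. Members called by limma (2 in the report) numbered 0 at a score of at least 100, 0 at a 50% overlap, 4 at 2000 bases, 1 on the untransformed share and 0 to 7 with 1 list left out. Without TNBS mice 1 and 3 they numbered 299, a fit in which the list of TNBS mouse 2 is assumed to vary like the normal lists. The fold difference was 1.34 (p = 0.0625, exact) with equal numbers of peaks, 2.73 (exact p = 0.125) without TNBS mice 1 and 3, and 2.51 to 3.54 with 1 list left out (exact p = 0.0625, the smallest 5 lists can give). With the replicate block, limma called 0 members, the covered share differed by -3.56 points (exact p = 1) and peaks per region by 0.00889 (exact p = 0.25); the mouse numbers did not pair the samples. Regions were found anew in each alternative that changes peaks or lists, so their members differ. Where no other cause is named, the cause was not tested. Depth limits the length of a listed peak and is unknown here.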

Other observations

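6 annotated microRNA hairpins lay wholly inside broad regions. Mir546 lay in the region of Ctdsp2, Mir5130 in that of Kctd12, Mir2139 in that of Klhdc7a and Mir8115 in that of P2rx7, each on the strand of the gene. Mir1896 in the region of Zscan26 and Mir6340 in that of Rab22a lay on the other strand. Ctdsp2 encodes a phosphatase of RNA polymerase II and P2rx7 an ATP-gated channel of immune cells. The lists do not separate fragments of a hairpin from those of its host.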
